A study of Homo sapiens with 24 samples.

Results

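The genes described here are 44 genes of DNA replication and S phase, chosen by name for their work in origin licensing, helicase activation, DNA synthesis, nucleotide supply and E2F control. All 44 were found, each as 1 of the 58676 gene rows of the count table, and all 44 had enough counts to be tested in each comparison below. They were measured in HSJD-DIPG-007, an established diffuse midline glioma (DMG) cell line whose genotype is given as H3F3A K27M, ACVR1 R206H and PIK3CA MIS. Every library, vehicle or treated, carries these alleles, so none of the comparisons is against cells without them. Spheroid cultures received vehicle or LLY-283, an inhibitor of the arginine methyltransferase PRMT5, given at its 40% growth inhibitory concentration (GI40). The labels give this as a single dose, while the methods of the study renew medium and compound after 5 days, which bears on days 7 and 10. Poly(A) RNA was sequenced in 24 libraries. Each arm had 3 libraries at day 0, 3 at day 5, 2 at day 7 and a single one on days 1, 2, 3 and 10. The libraries of an arm and day are described as technical repeats of this 1 line, so the p-values below measure the spread between libraries and not between independent cultures.

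A cell copies its genome once per cycle. Origins are licensed in G1, when the origin recognition complex, CDC6 and CDT1 load the MCM2 to MCM7 helicase ring onto DNA. In S phase, CDC45 and the GINS complex join the ring and switch it on, polymerase alpha and primase lay down primers, and polymerases delta and epsilon extend them while held to DNA by the PCNA clamp, which the RFC complex loads. Ribonucleotide reductase, thymidylate synthase and related enzymes make the nucleotides that are used. Most of these genes are transcribed under the E2F transcription factors, which are released from the retinoblastoma protein as cyclin D and cyclin E kinases act, and the mRNAs therefore mark cycling cell populations. In RNA from whole cultures, fewer cells in S phase and less of an mRNA per cell cannot be told apart.

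Promoter sequences of the genes were set beside the counts because E2F factors are among them. RefSeq sequences (GRCh38.p14) of the 250 bases before the transcription start were matched for 39 of the 44 genes. Letters of an E2F site, taken as TTTCCCGC, TTTCGCGC, TTTGCCGC or TTTGGCGC on either strand, were present in 17 of the 39 (43.6%), against 928 of all 27305 genes with a window (3.40%). The letters CCAAT were present in 23 of the 39 (59.0%) and in 37% of all genes, and the letters TTTGAA or TTCGAA in 3 of the 39 (7.69%) and 17.2% of all genes. Neighbouring matches can overlap, because TTTGGCGCGAAA holds TTTGGCGC on one strand and TTTCGCGC on the other. The stretches below, each of 95 bases and read 5′ to 3′ on the strand of its gene, show how such letters sit before 6 of these genes, with the matched letters in capitals, and 1 gene, CDC6, without a match. They lie at chr16:88803694-88803788 (plus strand), chr6:52284882-52284976 (minus strand), chr2:135876518-135876612 (minus strand), chrX:24693724-24693818 (plus strand), chr20:5126632-5126726 (minus strand), chr20:33686386-33686480 (minus strand) and chr17:40287784-40287878 (plus strand), in the order printed, and overlap no annotated exon.
CDT1: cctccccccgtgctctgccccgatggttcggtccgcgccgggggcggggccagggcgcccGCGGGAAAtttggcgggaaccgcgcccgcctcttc
MCM3: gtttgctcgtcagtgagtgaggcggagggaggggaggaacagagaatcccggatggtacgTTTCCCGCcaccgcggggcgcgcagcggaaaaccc
MCM6: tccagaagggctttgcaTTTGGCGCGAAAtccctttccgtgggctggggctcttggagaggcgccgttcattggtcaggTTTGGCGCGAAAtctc
POLA1: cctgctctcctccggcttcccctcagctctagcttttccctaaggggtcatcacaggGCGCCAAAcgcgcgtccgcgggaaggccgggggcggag
PCNA: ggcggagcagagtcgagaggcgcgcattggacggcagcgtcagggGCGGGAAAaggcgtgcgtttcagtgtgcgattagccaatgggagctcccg
E2F1: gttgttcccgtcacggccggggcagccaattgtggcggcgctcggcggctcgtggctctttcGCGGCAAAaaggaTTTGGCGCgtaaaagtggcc
CDC6: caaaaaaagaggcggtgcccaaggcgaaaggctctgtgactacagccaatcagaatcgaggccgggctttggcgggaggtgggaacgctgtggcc
A match says that the letters are present in the window and not that a factor binds there. Likewise, no match means only that none of the 4 words was present. The CDC6 and CDT1 stretches hold tttggcgg, which differs from TTTGGCGC in its last letter and was not counted. MCM6 held 2 copies of TTTGGCGCGAAA and E2F1 held 2 different words. Of the genes that did not pass the test at day 5, POLE and E2F2 had windows with TTTGGCGC and LIG1 one with TTTCCCGC. The windows of GINS3 and PRIM1, which did not pass either, held none of the 4 words. That of RRM2, the member with the largest difference at day 5, held none of them.

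Library totals lay between 13835205 and 23190369 estimated counts, with a median of 18688160.5. At day 5, the vehicle libraries held 13835205 to 16691287 counts and the LLY-283 libraries 17339741 to 19516458, so depth moved with the arm. Of the glioma and precursor markers, OLIG2 lay at 228 to 372 normalised counts (CPM, scaled to library size), SOX2 at 258 to 464 and NES at 1886 to 2849 CPM, while SOX10 was at 0.600 CPM or less throughout. The summed level of 12 fibroblast markers was 280 to 442 CPM in vehicle and 397 to 412 CPM in LLY-283 at day 5, where 4 of the 11 tested (LUM, POSTN, THY1 and ACTA2) were called higher with LLY-283. The highest vehicle value was that of repeat 3, with FN1 at 60.1 CPM and COL1A1 at 53.6 CPM. The part of depth and of these markers in the results below was not tested. The summed myeloid markers reached at most 1.32 CPM, with TYROBP at 0 in 24 of 24 libraries. At day 7, the libraries labelled repeat 2 stood the other way round from those labelled repeat 1 for most of the 44 genes, and day 7 is therefore given by library. An exchange of the treatment labels between the 2 repeat 2 libraries is possible and was not tested, so the day 7 values below hold by label only.

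**Figure D1:**
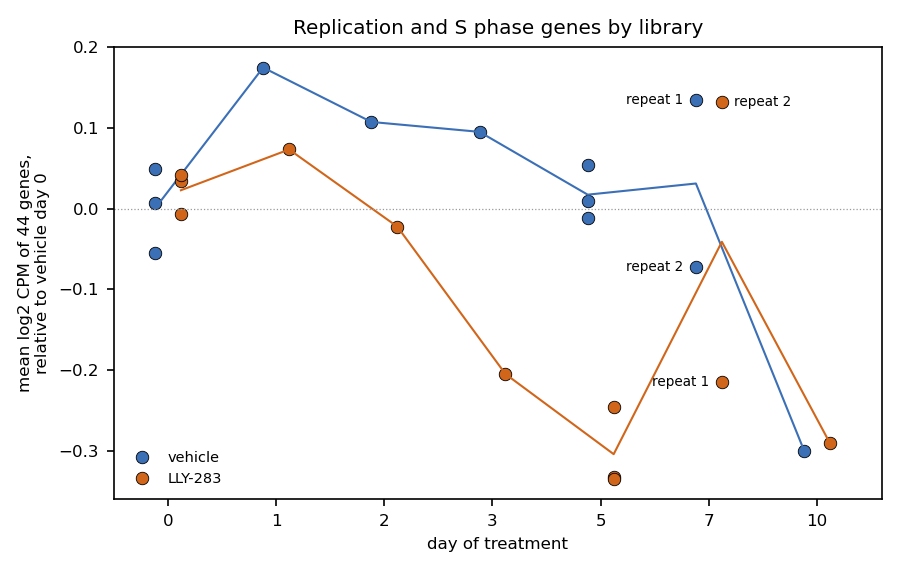
Mean log2 CPM of the 44 genes in each of the 24 libraries, relative to the mean of the 3 vehicle libraries of day 0 (y axis, log2 units), against day (x axis, days spaced evenly and not to scale), with lines through the mean of each arm and day. The LLY-283 points lie below vehicle from day 1 to day 5, most at days 3 and 5, the repeat 1 and repeat 2 pairs of day 7 stand in opposite order, and both arms are near -0.30 at day 10.

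Averaged over the 44 genes, the mean log2 CPM relative to vehicle at day 0 lay between -0.055 and 0.048 in the 3 vehicle libraries of day 0 and between -0.007 and 0.041 in the 3 LLY-283 libraries. Vehicle libraries of days 1, 2 and 3 gave 0.17, 0.11 and 0.095, and those of day 5 gave -0.011 to 0.053. In LLY-283 it was 0.073, -0.022 and -0.20 at days 1, 2 and 3, and -0.33 to -0.25 at day 5. The level in the treated cultures thus lay below vehicle on each of these days after day 0, and the gap widened from day 1 to day 3. Day 5 was near day 3. The median difference of the 44 was -0.28 in the day 3 pair and -0.28, -0.33 and -0.33 in the day 5 pairs. The 3 libraries of each arm at day 5 did not overlap.

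To see which replication genes differed after 5 days of LLY-283, the 3 treated and 3 vehicle libraries of day 5 were compared. Of the 44 genes, 39 fell, 0 rose and 5 did not pass the threshold of adjusted p under 0.01 (the quasi-likelihood test of edgeR, Benjamini-Hochberg adjusted over 16491 genes). Over all genes tested, 14.1% were called lower and 12% higher, and with library size alone as the scaling 1840 genes were lower and 2274 higher, with 37 of the 44 lower. The median log2 fold change of the 44 was -0.33, against 0.021 for all genes. Every LLY-283 library lay below every vehicle library for 38 of the 44, where 21.1% of all genes tested did so. The steepest fall was that of RRM2 at 41.9%. The 5 genes that did not pass were GINS3 (-0.18), PRIM1 (-0.20), POLE (0.054), LIG1 (-0.13) and E2F2 (-0.14), given as log2 fold changes, and of these POLE alone had an estimate above 0. When the spread was estimated from all 22 libraries of days 0 to 7, which includes the day 7 libraries, 28 of the 44 were called. In that fit 1253 of all 20756 genes were lower. Without the day 7 repeat 2 libraries, a setting chosen after seeing the data, 40 were called, and 2606 of all 20714 genes were lower. Leaving out LLY-283 repeat 2 gave 33, with 1712 of all 16841 genes lower. Leaving out vehicle repeat 3, the library with the highest FN1, gave 36, with 2002 of all 17237 genes lower. The main test had 2317 of 16491 lower.

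**Figure D2:**
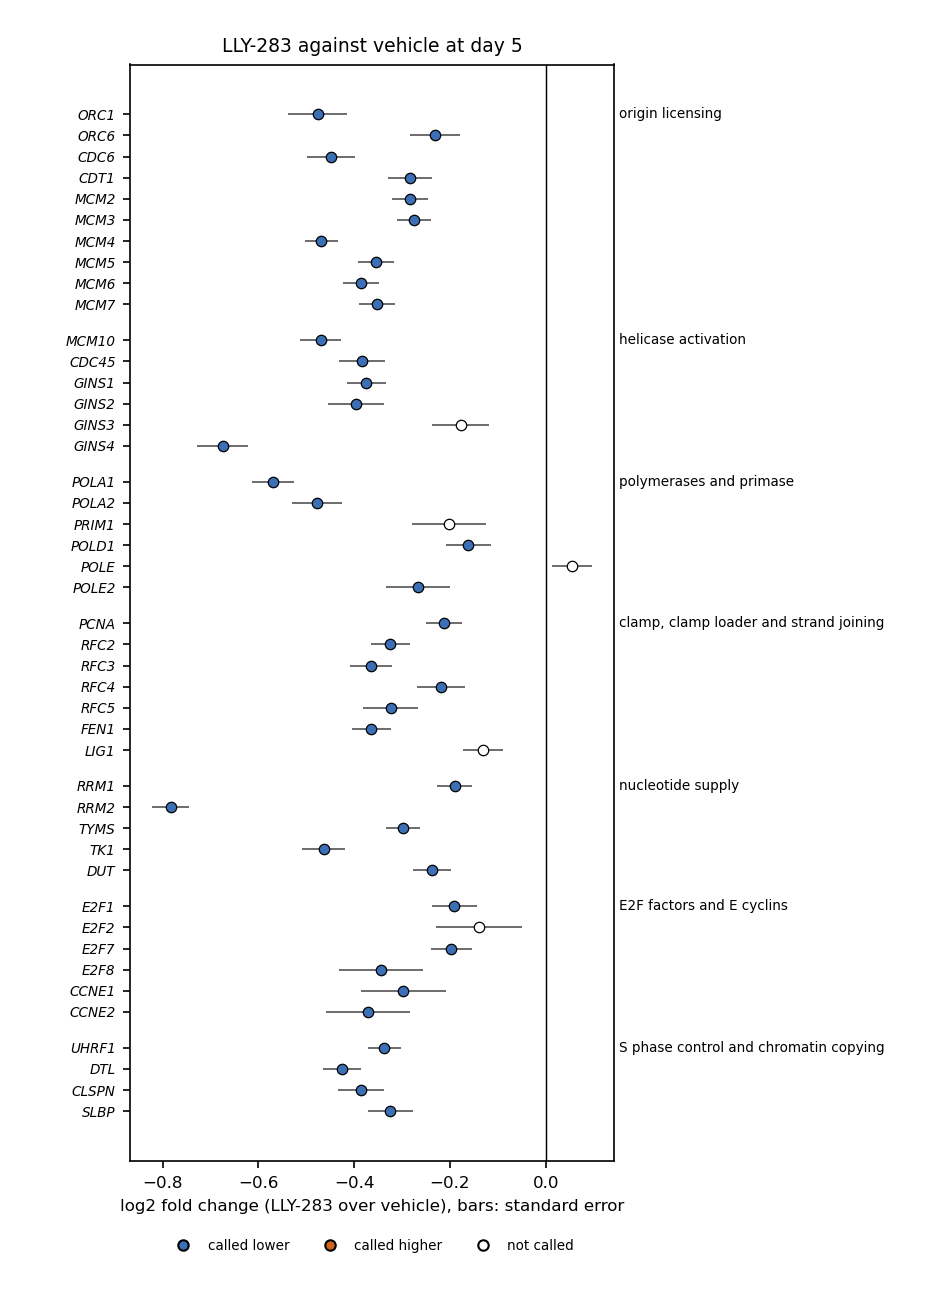
Log2 fold change of each of the 44 genes at day 5, LLY-283 over vehicle (x axis), with genes grouped by role (y axis), bars of 1 standard error and filled points for genes called at adjusted p under 0.01. All filled points lie to the left of 0, with RRM2, GINS4 and POLA1 farthest, and POLE is the single point to the right of 0.

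All 10 origin licensing genes fell at day 5, with log2 fold changes from -0.48 for ORC1 to -0.23 for ORC6 and a median of -0.35. MCM4, a subunit of the helicase ring encoded at chr8:47960185-47978160 (plus strand), was at 587, 574 and 599 CPM in the vehicle libraries and 443, 419 and 418 CPM in the LLY-283 libraries. It fell by 0.47 ± 0.034 (log2, SE), or by 27.7%, with an edgeR adjusted p of 2.06e-11. MCM6, another ring subunit, at chr2:135839626-135876443 (minus strand), stood at 232, 215 and 226 CPM in vehicle and 181, 166 and 172 CPM under LLY-283. Neither gene had an LLY-283 library within the vehicle range. The MCM6 difference was -0.39 ± 0.038 (edgeR adjusted p = 5.16e-09). ORC1, the largest subunit of the origin recognition complex, and CDC6, which helps load the ring, fell by 28.1% and 26.7%, and CDT1, their loading partner, fell by 17.9%. The other ring subunits had log2 fold changes of -0.28 (MCM2), -0.28 (MCM3), -0.35 (MCM5) and -0.35 (MCM7), so that all 6 subunits were called lower by between 17.4% and 27.7%.

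Of the 6 genes of helicase activation, 5 fell, with a median log2 fold change of -0.39. GINS4, a subunit of the GINS complex at chr8:41529218-41545030 (plus strand), had 65.3, 62.6 and 62.9 CPM in vehicle and 37.3, 42.7 and 40.1 CPM under LLY-283. The fall was 0.67 ± 0.054 (log2, SE) or 37.4% (edgeR adjusted p = 1.38e-10). MCM10, which binds the activated helicase and is encoded at chr10:13161558-13211110 (plus strand), gave 87.2, 87.5 and 89.1 CPM in vehicle against 67.2, 62 and 62.6 CPM in the treated libraries, a difference of -0.47 ± 0.043 (edgeR adjusted p = 1.67e-09). For both genes the 2 arms were separate. Of the other GINS subunits, GINS1 and GINS2 were called at -0.38 and -0.40, and GINS3 did not pass at -0.18 ± 0.060 (edgeR adjusted p = 0.0207). CDC45, the remaining part of the active helicase, was called at -0.38.

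Among polymerases and primase, 4 of 6 fell, with a median log2 fold change of -0.23 over the 6. POLA1, the catalytic subunit of polymerase alpha at chrX:24693873-24996986 (plus strand), was measured at 128, 118 and 125 CPM in vehicle and 89.96, 83.2 and 78.9 CPM under LLY-283. It was lower by 32.6%, a log2 fold change of -0.57 ± 0.043 (edgeR adjusted p = 5.05e-11). Its accessory subunit POLA2 (chr11:65261913-65305959, plus strand) went from 56.99, 57.7 and 58.9 CPM to 43, 39.01 and 43.4 CPM, with -0.48 ± 0.052 (edgeR adjusted p = 3.87e-08). The arms did not overlap for either subunit. PRIM1, the catalytic primase subunit that works with polymerase alpha, had an estimate of -0.20 ± 0.078 that did not pass (edgeR adjusted p = 0.0427), and the SD of its level over the 3 vehicle libraries of day 0 was large beside its mean, at 2.38 and 17.2 CPM per kilobase. PRIM1 exons overlap those of NACA on the same strand. POLD1, the catalytic subunit of polymerase delta, was called at -0.16, although its arms overlapped, and its call was lost in 7 of 15 alternative settings. POLE, the catalytic subunit of polymerase epsilon, was at 134, 125 and 131 CPM in vehicle and 129, 139 and 139 CPM under LLY-283, an estimate of 0.054 ± 0.042 within overlapping libraries (edgeR adjusted p = 0.337). Its partner subunit POLE2 was called at -0.27, a call lost in 4 of 15 alternative settings, and its LLY-283 libraries had been below vehicle at day 0 as well.

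Of the 7 genes for the clamp, its loader and strand joining, 6 fell, with a median of -0.32 on the log2 scale. FEN1, the nuclease that trims Okazaki fragment ends, lies at chr11:61792911-61797238 (plus strand) and read 236, 229.6 and 226 CPM in vehicle against 196, 174 and 171 CPM in LLY-283 libraries. The log2 fold change was -0.36 ± 0.040 (edgeR adjusted p = 5.68e-08). RFC3, a clamp loader subunit at chr13:33818069-33966558 (plus strand), had 110.2, 103 and 111 CPM and 90.3, 79.1 and 83.5 CPM in the 2 arms, with -0.37 ± 0.045 (edgeR adjusted p = 2.43e-07). Again the treated libraries of both lay wholly below vehicle. PCNA, the clamp itself and the most abundant of the 44 mRNAs per length, fell by 13.7%, and the loader subunits RFC2, RFC4 and RFC5 fell by 20.2%, 14.1% and 20.1%. LIG1, the ligase that joins the fragments, did not pass at -0.13 ± 0.041 (edgeR adjusted p = 0.0138), although each LLY-283 library was below each vehicle library. FEN1 exons overlap those of FADS2 on the same strand in the annotation, and PCNA and RFC3 have named pseudogene copies, so the share of their counts from those loci is uncertain.

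All 5 nucleotide supply genes fell, with log2 fold changes from -0.78 to -0.19 and a median of -0.30. RRM2, the S phase subunit of ribonucleotide reductase (chr2:10120698-10211725, plus strand), was at 231, 220.4 and 236 CPM in vehicle and 141, 134 and 127 CPM under LLY-283. That is a fall of 0.78 ± 0.038 on the log2 scale (edgeR adjusted p = 9.75e-15), the largest among the 44. The partner subunit RRM1 fell by 12.4%. TK1, the thymidine salvage kinase at chr17:78174091-78187233 (minus strand), had 78.3, 81.1 and 79.2 CPM in vehicle and 60.4, 57.8 and 56 CPM under LLY-283, a log2 fold change of -0.46 ± 0.045 (edgeR adjusted p = 3.86e-09). TYMS, which makes dTMP, and DUT, which clears dUTP, were called at -0.30 and -0.24. Each of the 5 was separate between the arms. Pseudogene copies are annotated for RRM2, TYMS and DUT, with 8 for DUT.

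Of the 6 E2F factors and E cyclins, 5 fell, with a median log2 fold change of -0.25. E2F7, a repressor of E2F targets late in S phase, lies at chr12:77021248-77065569 (minus strand) and stood at 79.9, 75.8 and 77.7 CPM in vehicle and 70.5, 67.5 and 66.97 CPM under LLY-283, with -0.20 ± 0.043 (edgeR adjusted p = 6.36e-04). The activator E2F1, at chr20:33675477-33686385 (minus strand), was at 60.2, 62.1 and 64.1 CPM and 55.1, 54.9 and 54.1 CPM, a difference of -0.19 ± 0.047 (edgeR adjusted p = 0.00194). For both, the arms were separate but close. The second repressor E2F8 was called at -0.34, and the activator E2F2 did not pass at -0.14 ± 0.090 (edgeR adjusted p = 0.241). The cyclins CCNE1 and CCNE2, which activate CDK2 at S phase entry, were called at -0.30 and -0.37. Their calls were among the less firm ones, lost in 8 and 5 of 15 alternative settings, and the CCNE2 libraries of the 2 arms overlapped.

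All 4 genes of S phase control and chromatin copying fell, with a median of -0.36 on the log2 scale. DTL, the adaptor that marks CDT1 for destruction during S phase (chr1:212035553-212107400, plus strand), gave 214, 199 and 203 CPM in vehicle and 164, 153 and 145 CPM under LLY-283, a fall of 0.43 ± 0.040 (log2, SE; edgeR adjusted p = 2.56e-09). UHRF1, which recruits DNMT1 to newly copied DNA and lies at chr19:4903080-4962154 (plus strand), went from 739, 708 and 714 CPM to 591, 563 and 567 CPM, with -0.34 ± 0.034 (edgeR adjusted p = 8.25e-09). Vehicle and LLY-283 libraries were separate for both. CLSPN, a mediator of the replication checkpoint, was called at -0.39, and SLBP, which binds the stem loop of replication-dependent histone mRNAs, at -0.33.

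At day 0 the same comparison gave a background. None of the 44 genes was called (edgeR's quasi-likelihood test, Benjamini-Hochberg adjusted), where 0.0169% of all 17780 genes were. At an unadjusted p under 0.05 there were 3 of the 44 and 1012 of all genes, DESeq2 also called 0 of the 44, and the median log2 fold change was 0.011. Every LLY-283 library was below every vehicle library for 1 gene, POLE2, and 5.43% of all genes were wholly below. For 4 genes, POLA2, RFC3, E2F7 and CCNE2, every LLY-283 library was above. The share of all genes wholly above was not counted. CCNE2 was at 39.3, 39.2 and 38.9 CPM in vehicle and 46.6, 43.9 and 44.6 CPM in LLY-283 at day 0. Such day 0 gaps enter the differences between days 5 and 0 below. Whether the day 5 effect differed from that of day 0 was tested in the 12 libraries of both days. The treatment effect was lower at day 5 for 33 of the 44 and higher for 0 (edgeR adjusted p under 0.01), against 8.15% and 6.78% of all genes. The median of the difference was -0.33 for the 44 and 0.040 for all genes. RRM2 differed by -0.78 ± 0.053 (edgeR adjusted p = 3.93e-11), GINS4 by -0.68 ± 0.062 (7.63e-09) and POLA2 by -0.59 ± 0.071 (6.11e-07). The 11 genes that did not pass were ORC6, GINS3, 4 polymerase and primase genes (PRIM1, POLD1, POLE and POLE2), RFC4, LIG1, E2F2, E2F8 and CCNE1. At an unadjusted p under 0.05 the main test had 40 of the 44 and 6390 of all 18369 genes. In a fit with the spread of all 22 libraries of days 0 to 7, 0 of the 44 and 51 of all genes were called. In that fit 39 of the 44 had an unadjusted p under 0.05, and the number of all genes is not given here. Without the day 7 repeat 2 libraries 33 of the 44 were called, all lower, and 2840 of all genes.

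Days 1 to 3 had 1 library per arm and day, so each day is a description and the 3 days were tested together, with day as a term. At day 1, 39 of the 44 genes were lower with LLY-283, beside 53.9% of all genes. By over 0.2 on the log2 CPM scale, 4 of the 44 and 17.6% of all genes were lower. The day 2 pair had 41 lower (51.9% of all genes), 10 of them by over 0.2 (18.2% of all genes). The day 3 pair had 43 lower (46.8% of all genes), 33 of them by over 0.2 (23.8% of all genes). The median differences were -0.094, -0.15 and -0.28. RRM2 was at 296, 268 and 261 CPM in vehicle on days 1, 2 and 3, and at 268, 227 and 168 CPM under LLY-283. GINS4 was at 98.1, 82.6 and 79.2 CPM in vehicle and 81.2, 68.8 and 53.01 CPM under LLY-283. In both genes the treated library was below vehicle on each day. The LLY-283 libraries of days 2 and 3 had summed fibroblast markers of 372 and 377 CPM against 286 and 277 CPM in vehicle, and their part was not tested. In the joint test 0 of the 44 were called (edgeR's quasi-likelihood test, smallest adjusted p = 0.117), where 0.0104% of all genes were. The estimates of 43 of the 44 were below 0 (48.4% of all genes), with a median of -0.17 against 0.0075 for all genes. Of the 44, 29 had an unadjusted p under 0.05 (3016 of all 19179 genes). DESeq2 called 0 of the 44. The count was 13 lower without the filter on low counts, where 517 of all genes were called. It was 22 in the fit with the spread of 20 libraries, without day 7 repeat 2, where 1025 of all genes were called. It was 8 without vehicle day 3 and 9 without LLY-283 day 3. More of all genes were called there too, and their range is given in the closing section. The estimates were -0.36 for GINS4, -0.33 for RRM2, -0.32 for TYMS and, again the single one above 0, 0.091 for POLE.

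At day 7, 0 of the 44 genes and 0% of all 16826 were called by label (edgeR's quasi-likelihood test, Benjamini-Hochberg adjusted). At an unadjusted p under 0.05 there were 0 of the 44 and 236 of all genes, and DESeq2 called 3 genes, none of the 44. In the repeat 1 pair, 44 of 44 genes were lower in LLY-283 (52.9% of all genes), with a median of -0.35. Of these, 39 were lower by over 0.2 (26.9% of all genes). In the repeat 2 pair, the library labelled LLY-283 was lower for 3 genes only (54.8% of all genes), with a median of 0.20. It was higher by over 0.2 for 22 (24% of all genes) and lower by over 0.2 for 0 (29.6% of all genes). MCM4 was at 627 CPM in vehicle and 458 CPM in LLY-283 for repeat 1, but at 490.2 and 610.2 CPM in the libraries labelled vehicle and LLY-283 of repeat 2. RRM2 stood at 259.5 and 165 CPM in repeat 1 and 193 and 256 CPM in repeat 2, in the same order of labels. In each pair 1 library was above the day 5 vehicle libraries for both genes, and the other was between the 2 arms of day 5.

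Day 10 had 1 library per arm and no test. Here 19 of the 44 genes were lower with LLY-283, near the share of all genes, 45.3%, and the median difference was 0.0056. By over 0.2, 4 were lower (22% of all genes) and 4 higher (27.8% of all genes). Both arms were low, at -0.30 in vehicle and -0.29 in LLY-283 for the mean log2 CPM of the 44 genes relative to vehicle at day 0. RRM2 was at 165 CPM in vehicle and 151 CPM under LLY-283, both between the 2 arms of day 5. CCNE2 was at 16.3 CPM in vehicle, lower than in any other library, and at 20.8 CPM under LLY-283. UHRF1, which had held 739, 708 and 714 CPM in vehicle at day 5, was at 481 CPM in vehicle and 484 CPM under LLY-283. The day 10 vehicle library also had the highest summed endothelial markers, 25.6 CPM, nearly all from PECAM1 at 24.7 CPM, and their part was not tested.

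**Figure D3:**
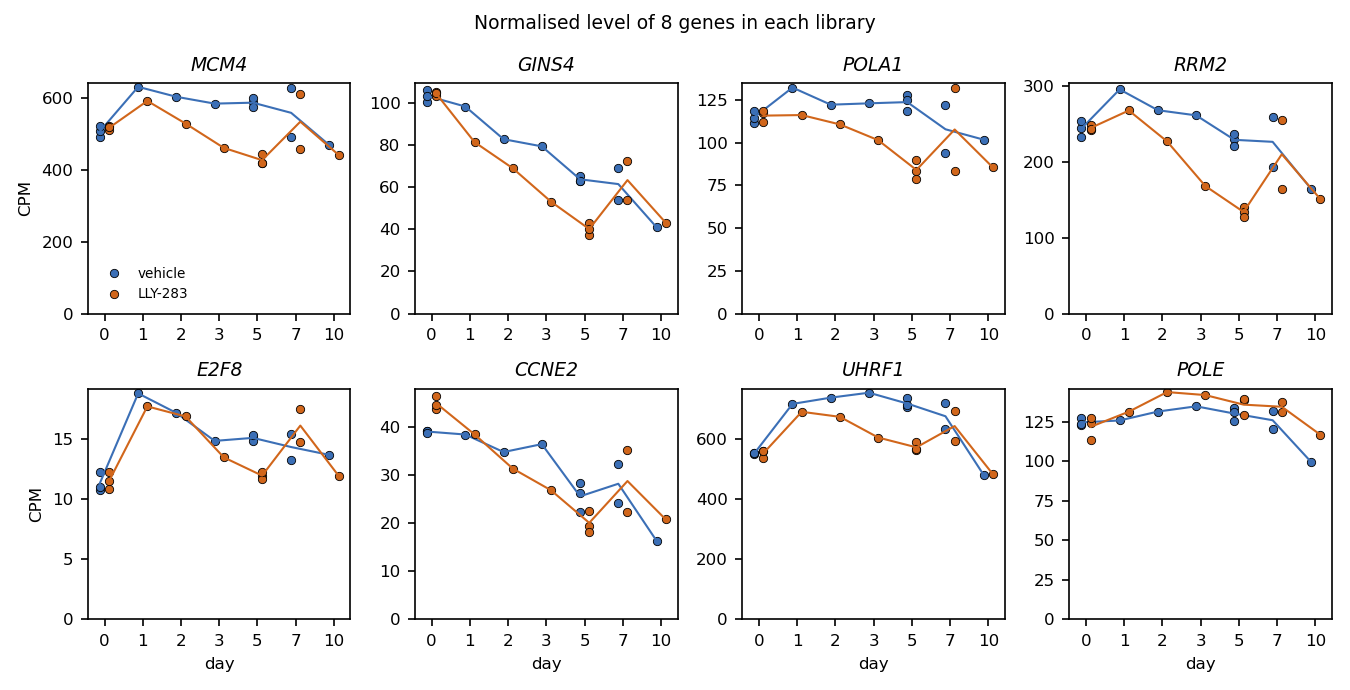
Normalised level in CPM (y axes, from 0) of 8 of the 44 genes in each library by day (x axes, days spaced evenly), with lines through the mean of each arm. MCM4, POLA1 and RRM2 separate by arm up to day 5, GINS4 and CCNE2 are lower at day 5 than at day 0 in both arms, E2F8 and UHRF1 are higher at day 1 than at day 0, and POLE shows little distance between the arms.

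The first day in culture after dosing was compared with day 0 in both arms together, with 2 libraries at day 1 and 6 at day 0 and treatment as a term. Of the 44 genes, 19 rose and 4 fell (edgeR adjusted p under 0.01), against 13.4% and 7.8% of all 20101 genes. The median log2 change was 0.13 against -0.0067 for all genes. E2F8 had the largest rise, 0.70 ± 0.078 (edgeR adjusted p = 6.65e-07), followed by CCNE1 at 0.46, POLA2 at 0.38, UHRF1 at 0.36 and RRM1 at 0.35. E2F8 was at 10.8, 10.99 and 12.2 CPM in vehicle and 10.8, 12.2 and 11.5 CPM in LLY-283 at day 0, and at 18.8 and 17.7 CPM at day 1. Both day 1 libraries were above all 6 of day 0. All 5 nucleotide supply genes rose, by 0.19 (DUT) to 0.35 (RRM1), and 4 of the 10 licensing genes, MCM2, MCM4, MCM6 and MCM7. The 4 that fell were GINS3 (-0.21), GINS4 (-0.19), E2F1 (-0.16) and E2F7 (-0.16). With 2 libraries at day 1 this result rests on few values. Fewer of the 44 were called without the vehicle library of day 1. With the spread of all 22 libraries 6 rose and 0 fell, where 2684 of all genes were called. Without day 7 repeat 2 in that fit 19 rose and 4 fell, and the count over all genes is not given here.

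Culture time without drug was compared between the 3 vehicle libraries of day 5 and the 3 of day 0. These held 13835205 to 16691287 counts at day 5 and 19048997 to 20405208 at day 0, so depth moved with day. The sample numbers of days 0 to 3 also form a block apart from those of days 5, 7 and 10. Culture time cannot be told apart from what goes with that block, and the part of depth was not tested. Of the 44 genes, 15 rose, 4 fell and 25 did not pass (edgeR's quasi-likelihood test, adjusted p under 0.01), beside 22.2% of all 17106 genes higher and 16.7% lower. The median was 0.068 on the log2 scale, against -0.015 for all genes. GINS4 had 100.4, 106 and 103 CPM at day 0 and 65.3, 62.6 and 62.9 CPM at day 5, a fall of 0.69 ± 0.042 or 37.8% (edgeR adjusted p = 1.03e-13), and GINS3 (chr16:58295080-58406147, plus strand) had 43.6, 46.6 and 47.9 and 38.1, 34.6 and 37.1 CPM, with -0.32 ± 0.055 (edgeR adjusted p = 2.01e-05). GINS1 and GINS2, of the same complex, had 0.053 and 0.13 and did not pass. CCNE2 (chr8:94879770-94896678, minus strand) was at 39.3, 39.2 and 38.9 CPM at day 0 and 28.3, 26.3 and 22.3 CPM at day 5, a fall of 0.59 ± 0.068 (edgeR adjusted p = 3.93e-08). Its sister cyclin CCNE1 had an estimate of 0.16 that did not pass. In the other direction, E2F8 (chr11:19224063-19241620, minus strand) went from 10.8, 10.99 and 12.2 CPM to 15.1, 14.8 and 15.4 CPM, a rise of 0.43 ± 0.088 (edgeR adjusted p = 2.02e-04). UHRF1 went from 549.9, 555 and 555 to 739, 708 and 714 CPM, a rise of 0.39 ± 0.035 (edgeR adjusted p = 3.34e-10). The days did not overlap for any of these 5 genes. The other gene to fall was E2F1, at -0.19. Of the nucleotide supply genes, RRM1, TYMS, TK1 and DUT rose by 0.18 to 0.28, whereas RRM2 had -0.080 and did not pass. The licensing genes that rose were MCM3, MCM4, MCM6 and MCM7, by 0.18 to 0.22. Scaling by library size alone gave 12 higher and 13 lower of the 44, and 53.8% of the calls over all genes were then lower, against 42.9% with TMM. With the spread of all 22 libraries, 4 rose and 3 fell, and without day 7 repeat 2 in that fit 15 rose and 4 fell. The counts over all genes in these fits are not given here, so these counts cannot be set against a share of all genes.

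**Figure D4:**
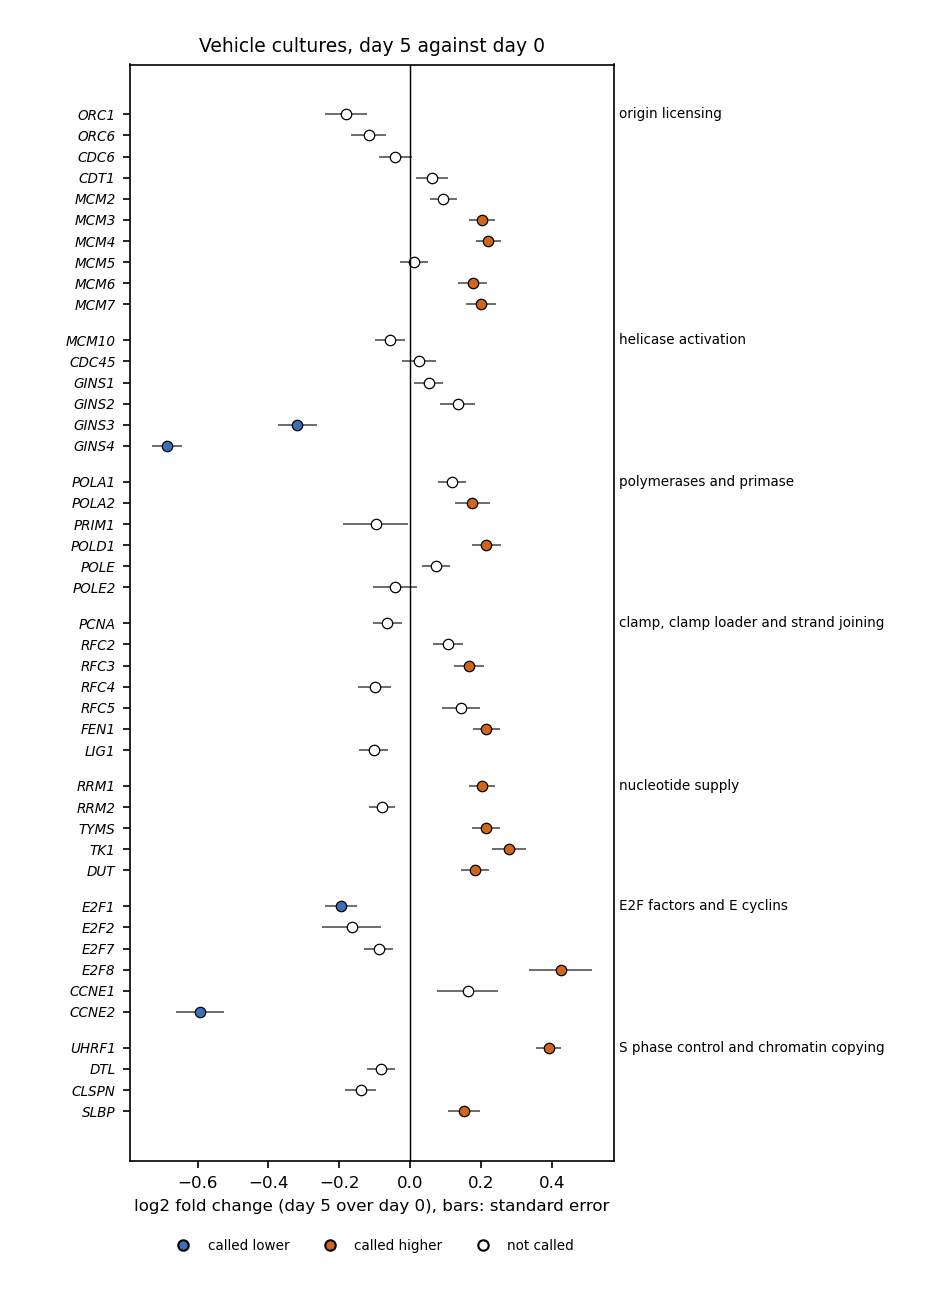
Log2 fold change of each of the 44 genes in vehicle cultures, day 5 over day 0 (x axis), with genes grouped by role (y axis), bars of 1 standard error and filled points for genes called at adjusted p under 0.01. The 15 genes called higher lie between 0.15 and 0.43, and GINS4 and CCNE2 lie farthest to the left.

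The day 5 vehicle libraries serve in both the treatment and the time comparison, so the 2 sets of calls are not independent, and each gene's values are given side by side without a test. The 15 genes that rose with time in vehicle were each called lower with LLY-283 at day 5, where 39 of the 44 were called lower whatever their change with time, and 3 of the 4 that fell with time were called lower. Over all genes, 26.3% of the 3799 that rose and 10.1% of the 2724 that fell with time and were tested in both comparisons were called lower with LLY-283. A high vehicle level at day 5 by itself raises the time difference and lowers the treatment difference, and its share in these counts was not tested. UHRF1 illustrates the first pattern, at 549.9, 555 and 555 CPM in vehicle at day 0, 739, 708 and 714 CPM in vehicle at day 5 and 591, 563 and 567 CPM under LLY-283 at day 5. The treated libraries of day 5 lay above the vehicle libraries of day 0 and below vehicle at day 5. Treated libraries of day 0 held 560, 539 and 562.7 CPM, close to the lowest treated value of day 5, 563.3 CPM. The change within the treated arm was not tested. GINS4 shows the second pattern, at 100.4, 106 and 103 CPM in vehicle at day 0 and 65.3, 62.6 and 62.9 CPM in vehicle at day 5. Under LLY-283 at day 5 it was at 37.3, 42.7 and 40.1 CPM, each step lower. RRM2 shows another, with 233, 244 and 254 CPM at day 0 and 231, 220.4 and 236 CPM at day 5 in vehicle, a log2 difference of -0.080 that did not pass, and 141, 134 and 127 CPM in treated cultures at day 5.

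**Figure D5:**
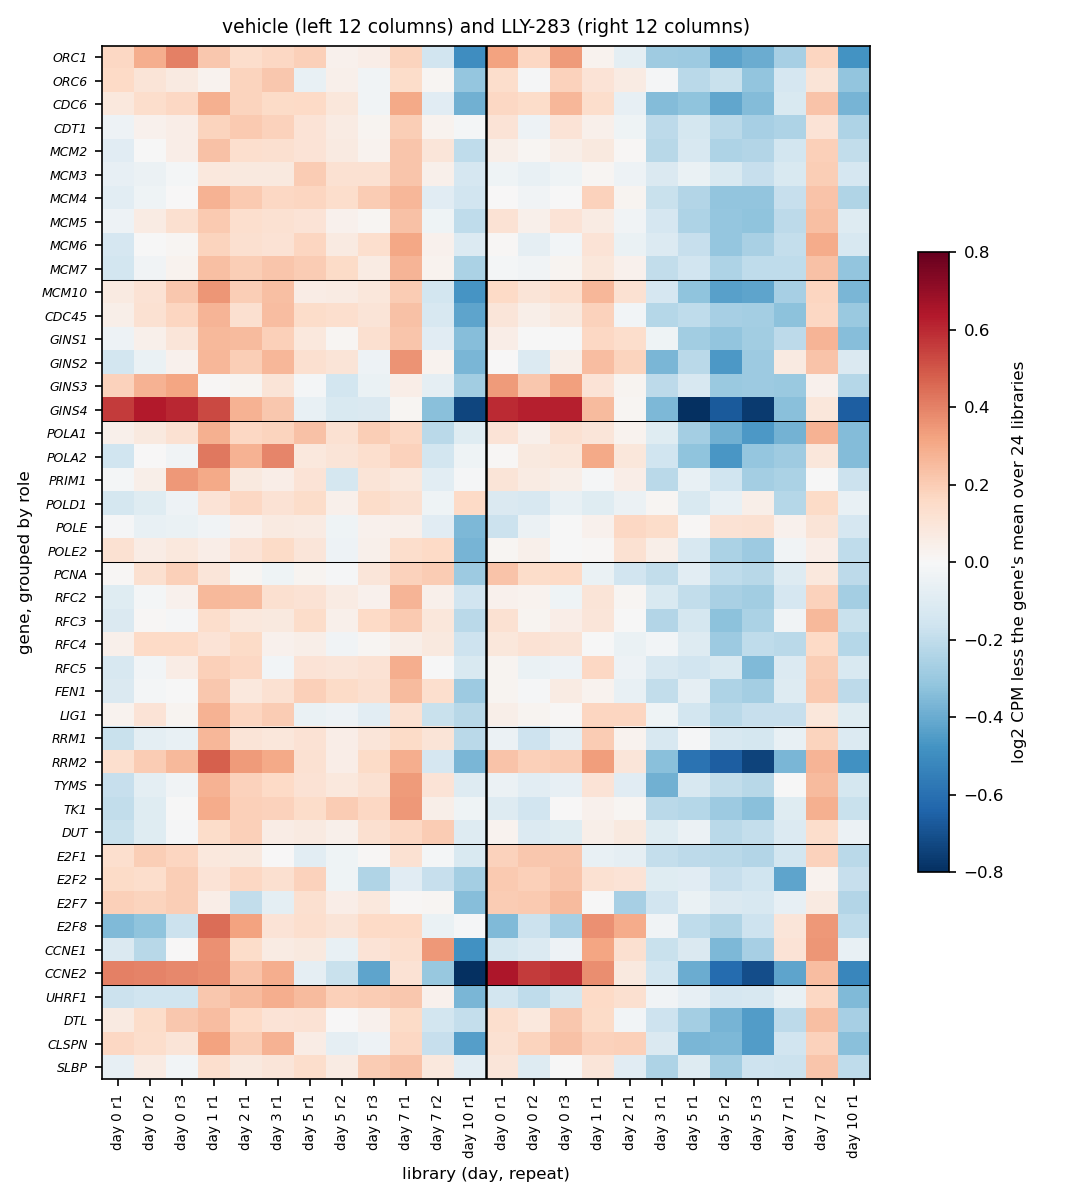
Log2 CPM of each of the 44 genes (rows, grouped by role) in each of the 24 libraries (columns, by arm, day and repeat), with the gene's mean over the libraries subtracted, red for above and blue for below. Most rows are blue in the LLY-283 columns of day 3, day 5 and day 7 repeat 1 and in both day 10 columns, GINS4 and CCNE2 are red at day 0 in both arms, and the column labelled LLY-283 day 7 repeat 2 is red.

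The levels of the 44 genes spanned a wide range before treatment. Per kilobase of the canonical transcript, the vehicle day 0 mean ± SD (n = 3) was 272 ± 17.2 CPM per kilobase for PCNA, 197 ± 11.8 for MCM7 and 142 ± 0.722 for UHRF1 at the top. At the bottom it was 7.42 ± 0.588 for CCNE1, 3.93 ± 0.0803 for E2F2 and 3.06 ± 0.214 for E2F8. The 6 subunits of the MCM ring, which are present once each in a ring, ranged from 51.8 (MCM5) to 197 (MCM7) on this scale, and the microRNA MIR93 lies within the annotated exons of MCM7. MCM6 at 53.3 ± 3.04, MCM2 at 56.97 ± 2.82 and MCM5 at 51.8 ± 2.95 lay within 2 SDs of each other, while MCM4 at 125 ± 3.93 and MCM3 at 115 ± 2.00 were above them by more than 2 SDs. RRM1 at 71.95 ± 3.11 and RRM2 at 74.9 ± 3.21 lay within 1 SD of each other. In the annotation, exons of 5 of the 44 genes overlap another gene on the same strand and those of 19 on the other strand, and the strand setting of the counting is not given in the sources used here.

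Of 46 further genes of replication and S phase, all tested at day 5, 31 fell, 2 rose and 13 did not pass (edgeR adjusted p under 0.01), with a median log2 fold change of -0.20. The shares over all genes in this test were 14.1% lower and 12% higher. The 6 of smallest p were POLE3, an accessory subunit of polymerase epsilon (-0.42 ± 0.037, edgeR adjusted p = 8.64e-10), CDC25A, the phosphatase that activates CDK2 (-0.49 ± 0.046, 2.63e-09), TFDP1, the DNA-binding partner of E2F factors (-0.40 ± 0.038, 2.90e-09), MCM8, a helicase related to the MCM ring (-0.44 ± 0.042, 3.07e-09), the S phase cyclin CCNA2 (-0.44 ± 0.044, 6.67e-09) and the fork protection factor TIPIN (-0.54 ± 0.061, 8.44e-08). CCNA2 was at 113, 114 and 116 CPM in vehicle and 92.7, 81 and 81.7 CPM under LLY-283, without overlap. The 2 that rose, named here after their values were seen, were ORC2, an origin recognition subunit, at 0.43 ± 0.054 (edgeR adjusted p = 4.78e-07), and TFDP2, a second E2F partner, at 0.38 ± 0.046 (edgeR adjusted p = 2.13e-07). ORC2 was at 39.5, 40.8 and 45.6 CPM in vehicle and 58.02, 57.5 and 54.3 CPM under LLY-283 at day 5, and at 41.5, 39.2 and 38.8 and 39.8, 38.7 and 40.9 CPM at day 0. The 2 origin recognition subunits among the 44, ORC1 and ORC6, had fallen, and ORC3, ORC4 and ORC5 had estimates of -0.070, -0.10 and -0.12 that did not pass. For the difference between the effects of days 5 and 0, 22 of the 46 were lower, 2 higher and 22 did not pass. In vehicle between day 0 and day 5, 17 of the 46 rose (22.2% of all genes) and 7 fell (16.7% of all genes), and at days 1 to 3 and at day 0 the treatment comparison called 0 of the 46.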

How the data were processed

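RNA of HSJD-DIPG-007 cells was sequenced in 24 libraries made with a directional poly(A) kit. The authors assigned paired-end reads to human transcripts with kallisto (version not given in the sources used here, genome build hg38) and deposited estimated counts per gene in whole numbers, not normalized. Totals lay between 13835205 and 23190369, which sets the counting error. From these counts, edgeR 4.0.16 (R 4.3.3) was run with TMM normalization, its low-count filter by arm and day and robust quasi-likelihood fits, and p-values were adjusted by Benjamini-Hochberg over all genes tested, with calls at adjusted p under 0.01. Each comparison used its own libraries. Days 1 to 3 had day, and day 1 against day 0 had treatment, as a term. The standard error is the log2 fold change over the square root of F. Levels are CPM with TMM over 24 libraries, and log2 levels add a prior count of 1. Days 1, 2, 3 and 10, with 1 library per arm, were compared pair by pair without a test.

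The genes, the roles and the further list were chosen with earlier results of these data known. Values by library were given for the 2 genes of smallest p at day 5 in each role, the 5 of largest change with time in vehicle and the 6 of smallest p of the further list. Alternatives were DESeq2 1.42.0 (the tool of the study), its size factors and scaling by library size alone. The low-count filter was left out or replaced by a minimum of 10 counts throughout. Others were all 22 libraries of days 0 to 7 in a shared fit, a replicate block and an adjusted p under 0.05. Each library was also left out in turn. A prior count of 0.5 was used for the mean level by library only. The shared fit without the 2 libraries of day 7 repeat 2 was chosen after seeing the data. Tests were run on simulated data first. Coordinates are those of GENCODE on GRCh38, and transcript lengths those of the canonical transcript. Within groups, chi-square per degree of freedom between libraries was 1.65 or more, so none was counted as a copy of another.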

Additional observations from a re-analysis of the deposited data

Results flagged for a closer look

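The treatment effect at day 5 differed from that at day 0 for 33 of the 44 genes, by a test of the difference itself over 12 libraries (edgeR's quasi-likelihood test, Benjamini-Hochberg adjusted p under 0.01), beside 8.15% of all genes lower and 6.78% higher. Each difference below is the log2 fold change of LLY-283 over vehicle at day 5 less that at day 0, and those of the 33 are all below 0. Among licensing genes it was -0.46 for ORC1, -0.50 for CDC6 and -0.32 for CDT1. The ring subunits MCM2, MCM3, MCM4, MCM5, MCM6 and MCM7 had -0.33, -0.27, -0.49, -0.38, -0.39 and -0.38. In helicase activation the values were -0.46 for MCM10, -0.34 for CDC45, -0.35 for GINS1, -0.43 for GINS2 and -0.68 for GINS4.

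Polymerase alpha gave -0.57 for POLA1 and -0.59 for POLA2. The clamp PCNA had -0.27, its loader -0.35 for RFC2, -0.46 for RFC3 and -0.32 for RFC5, and the nuclease FEN1 -0.43. Nucleotide supply ranged from -0.19 for RRM1 and -0.26 for DUT through -0.32 for TYMS and -0.47 for TK1 to -0.78 for RRM2. Of the E2F factors and E cyclins, E2F1 had -0.22, E2F7 -0.23 and CCNE2 -0.57. For POLA2, RFC3, E2F7 and CCNE2, every LLY-283 library had been above vehicle at day 0, and that gap is part of their values. The genes of S phase control had -0.33 for UHRF1, -0.42 for DTL, -0.42 for CLSPN and -0.33 for SLBP. Of the 46 further genes, 22 were lower, 2 higher and 22 did not pass. Those of smallest p at day 5 had -0.47 for MCM8, -0.54 for TIPIN, -0.44 for POLE3, -0.54 for CDC25A, -0.51 for CCNA2 and -0.39 for TFDP1. The 2 that had risen at day 5, ORC2 and TFDP2, had 0.43 and 0.36, and ORC3, ORC4 and ORC5 did not pass. With the spread of all 22 libraries of days 0 to 7, 0 of the 44 and 51 of all genes passed. With 20 of them, without day 7 repeat 2, 33 of the 44 and 2840 of all genes did. No group held 4 or more libraries, so a single library was not tested against the others of its group.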

How the results depend on the processing

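No estimate of a named gene that was called in the main or the alternative setting changed sign. Balances did turn. Of the 44 genes in vehicle over time, 15 were higher and 4 lower, against 12 and 13 with library size alone, and over all genes at day 5 the calls went from 2317 lower and 1987 higher to 1840 and 2274. The day 7 median of the 44, -0.038 by label, was 0.084 without vehicle repeat 1, 0.13 without LLY-283 repeat 1, -0.15 without vehicle repeat 2 and -0.24 without LLY-283 repeat 2.

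For LLY-283 against vehicle at day 5, the count of the 44 genes called was 28 to 42 under 9 alternatives and 33 to 40 when 1 library was left out, and all calls were lower in each of them. A shared fit of the 22 libraries of days 0 to 7 changed most counts. It called 2042 genes at day 5, against 4304, 0 at day 0, against 3, and 51 for the difference between days 5 and 0, against 2742. It called 0 of the 44 for that difference, against 33, 7 for vehicle day 5 against day 0, against 19, and 6 for day 1 against day 0, against 23, with 2684 genes in all, against 4262. The count over all genes for vehicle over time in that fit is not given here. That fit takes the spread of the day 7 libraries into each test. Without the 2 libraries of day 7 repeat 2 (20 libraries, chosen after seeing the data), it called 40 of the 44 and 4314 genes at day 5, 33 of the 44 and 2840 genes for the difference, 19 of the 44 in vehicle over time and 23 for day 1 against day 0. For vehicle over time and for day 1 against day 0 its counts over all genes are not given here. It called 5 genes at day 0, and at days 1 to 3 it called 1025 genes and 22 of the 44.

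Without the filter on low counts, 56 genes were called at day 0, 27 at day 7, against 0, and 517 at days 1 to 3, against 2, of which 13 were among the 44, against 0. DESeq2 called 3 genes at day 7 and 12 at days 1 to 3. With at least 10 counts in every library, 0 were called at days 1 to 3. At adjusted p under 0.05, 8 genes were called at day 0, 6 at days 1 to 3 and 4452 for the difference between days 5 and 0. The causes were not tested.

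Leaving out 1 library gave 0 to 17 genes at day 0, 7 to 32 at day 7 and 4 to 319 at days 1 to 3, where 0 to 9 of the 44 were called. For day 1 against day 0 it gave 2510 to 4576 genes and 11 to 24 of the 44, the lowest values without the vehicle library of day 1. Where 1 library remained in a group, it was assumed to vary like the others.

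A replicate block called 39 of the 44 at day 5 and 4401 genes, and 6 genes at day 0. It called 32 of the 44 for the difference between days 5 and 0 and 19 in vehicle over time. The counts over all genes for these comparisons are not given here. No pairing by repeat number was seen at days 0 and 5. The correlations of same-numbered libraries' deviations from their group means lay between -0.059 and 0.052. At day 7, with 2 libraries per group, both repeats give the same value by construction, -0.059. With the repeat 2 labels in question, that value cannot decide on pairing at day 7.

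Changes put into simulated counts were recovered in part. In simulated counts, a small random part of the genes was given a change. Of the genes given a change of 0.5 on the log2 scale, 63.4% were recovered in the day 5 comparison and 3.16% at day 7. The genes tested numbered 16147 and 16378, most of them without a change. Day 5 had 3 libraries per arm and day 7 had 2, and totals were 13835205 to 19516458 at day 5 and 17861057 to 20004937 at day 7. The parts of depth, of the number of libraries and of their spread were not tested.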
